A study of Homo sapiens with 28 samples.

Results

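The response of the MOLM13 cell line to GSK3484862 was described from the 4 arrays whose titles name MOLM13, out of 28 in the series. Of these, 2 held RNA from cells grown for 96 hours (to day 4) with 1 µM GSK3484862, which the titles shorten to GSK862, and 2 held RNA from cells grown equally long with 0.1% DMSO as vehicle. The series design describes biological duplicates, and no other agent or genetic change was labelled in either group. The other 24 arrays held 6 further acute myeloid leukaemia (AML) lines, GDM1, SKM1, THP1, SKNO1, NOMO1 and SHI1, under the same treatment and vehicle, and served here as context. All 28 were Affymetrix Human Genome U133 Plus 2.0 arrays, deposited as log2 signals with a floor at 2.13, and 11676 genes were tested, each by 1 probe set.

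MOLM13 is an established human AML line of monocytic type that carries a fusion of KMT2A with MLLT3 and an internal tandem duplication in FLT3. GSK3484862 is an inhibitor of DNMT1, the enzyme that copies the methylation pattern of CG dinucleotides onto the new DNA strand after replication. When DNMT1 is blocked, methylation is diluted as cells divide, and genes held silent by methylation at their promoters can be transcribed again, as is well known for germline genes. Methylation itself was not measured on these arrays. An array signal is an average over a culture, so more transcript in every cell and transcript in more of the cells cannot be told apart in any value below.

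The label of the line was checked against markers of a myeloid AML blast. Of 11 markers 9 were measured, and all 9 lay well above the floor with DMSO, among them PTPRC at a mean of 11.23, SPI1 at 9.46, LYZ at 15.12, CEBPA at 13.24 and MEIS1 at 10.55. HOXA9 and CD33 had no probe set with 1 symbol. Most of these markers are not particular to monocytes, so the check does not settle the monocytic type. Monocyte genes outside the 11 went both ways with DMSO. MNDA lay above the median gene, and CD14 and FCN1 lay at or near the floor, with values given below. Many markers of other cell types were not measured. Those measured were 12 of 39 listed lymphocyte, 5 of 27 erythroid, 9 of 25 megakaryocyte and 13 of 40 epithelial genes. The measured ones spanned the whole range with DMSO. The median gene stood at 9.53, and 3 of 12 lymphocyte, 2 of 5 erythroid, 3 of 9 megakaryocyte and 1 of 13 epithelial genes lay above it, NKG7 (lymphocyte) at 10.39, TFRC (erythroid) at 14.89 and FLI1 (megakaryocyte) at 11.79 among them. EBF1 and KLRF1 (lymphocyte), HBD (erythroid), PPBP and MYL9 (megakaryocyte) and ESRP1 (epithelial) lay at the floor in both DMSO arrays. Several of the genes above the median, such as FLI1 and TFRC, are also expressed in myeloid blasts. NKG7, TFRC, FLI1, MNDA, CD14 and FCN1 were named after their values were seen. The summed log2 signal of the 12 lymphocyte markers ran from 71.77 to 73.46 with DMSO and from 70.22 to 70.27 with GSK3484862. That of the 5 erythroid markers ran from 48.08 to 48.71 and from 51.12 to 51.73, that of the 9 megakaryocyte markers from 61.16 to 61.33 and from 62.62 to 63.10, and that of the 13 epithelial genes from 77.48 to 80.10 and from 82.95 to 83.15. The part of these sums in the results was not tested. The 2 arrays of a group correlated at r = 0.997 across genes in both groups; genes are not independent of each other. The SD of a single array was 0.196 with DMSO and 0.180 with GSK3484862.

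GSK3484862 changed 3394 of the 11676 genes in MOLM13 (29.1%; limma, adjusted p under 0.05 by Benjamini-Hochberg over all genes), with 1596 higher (13.7%) and 1798 lower (15.4%). The counts of every gene list below are to be read against these 2 shares of all genes. The lists were chosen with earlier results of these data known, so their counts are a description and no test. The sizes of the rises and the falls differed: 532 genes rose by 2-fold or more (4.56%) and 139 fell by as much (1.19%), and at 8-fold or more there were 73 rises and 3 falls. The median change over all genes was -0.01 on the log2 scale, and the median standard error of a change was 0.13. Both treated arrays lay on 1 side of both DMSO arrays for 1594 of the rises and 1789 of the falls. The fit pooled the spread between duplicates over all 7 lines, and the count of falls depended on single arrays: without replicate 1 of the treated MOLM13 arrays 918 falls were called, and without replicate 1 of the DMSO arrays 992. Large changes in both directions came mostly from the weaker signals, the rises more so. Of the 532 rises of 2-fold or more, 337 had a DMSO mean between 2.13 and 6.74, a range that holds the 2919 genes with the weakest DMSO signals, and 16 were among the 2919 with the strongest. Of the 139 falls of 2-fold or more, 58 were among the weakest 2919, 57 among the next 2919 and 7 among the strongest.

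**Figure D1:**
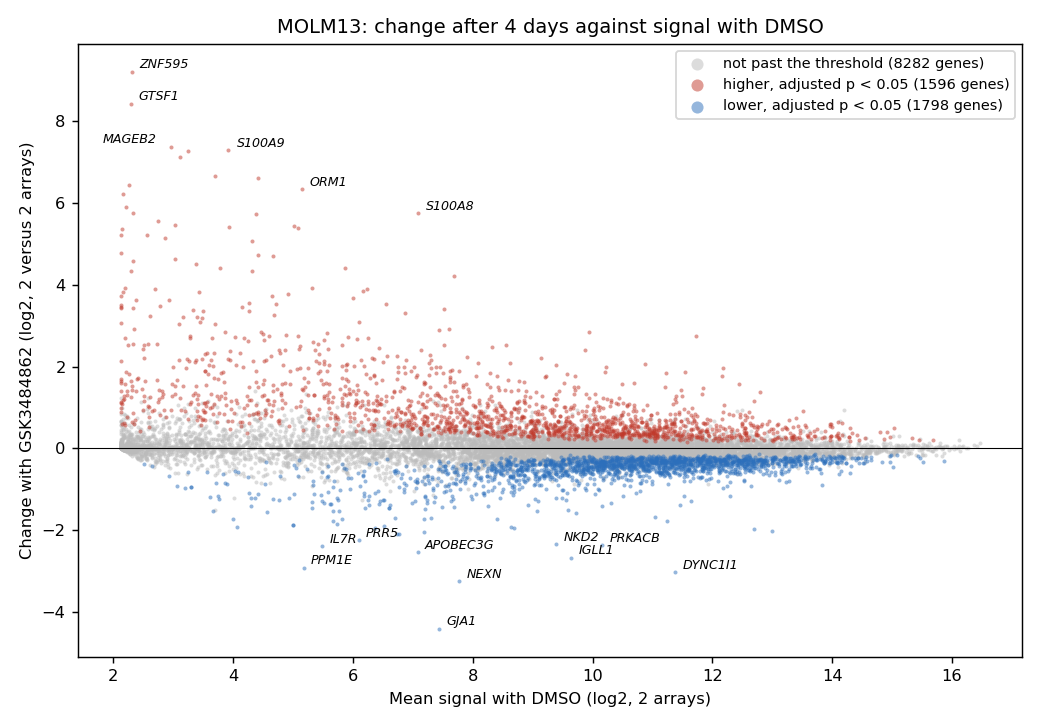
Each point is 1 of 11676 genes in MOLM13, with the mean log2 signal of the 2 DMSO arrays on the x axis and the log2 change with GSK3484862 on the y axis, coloured by the limma call (1596 higher in red, 1798 lower in blue). The largest rises, up to 9.22 for ZNF595, start near the floor of 2.13. The largest fall, GJA1 at -4.43, starts from a higher signal, still below that of the median gene.

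The 3 largest rises were in genes of a zinc finger protein and of the germline. ZNF595 encodes a zinc finger protein, and GTSF1 a small zinc finger protein that works with PIWI proteins in the silencing of transposons in germ cells. MAGEB2, on the X chromosome, belongs to the MAGE cancer-testis antigens, which are expressed in testis and in some tumours. The 250 bases before the start of these 3 genes are shown because they rose most of the 11676 and because CG dinucleotides, in capitals, are where DNMT1 acts. S100A9, chosen for this after its values were seen, is shown beside them as the largest rise among the members of the myeloid gene lists. The sequences are from RefSeq (GRCh38.p14), 5′ to 3′ along the gene: chr4:53071-53320 on the plus strand for ZNF595, chr12:54473603-54473852 on the minus strand for GTSF1, chrX:30215313-30215562 on the plus strand for MAGEB2 and chr1:153357604-153357853 on the plus strand for S100A9.
ZNF595: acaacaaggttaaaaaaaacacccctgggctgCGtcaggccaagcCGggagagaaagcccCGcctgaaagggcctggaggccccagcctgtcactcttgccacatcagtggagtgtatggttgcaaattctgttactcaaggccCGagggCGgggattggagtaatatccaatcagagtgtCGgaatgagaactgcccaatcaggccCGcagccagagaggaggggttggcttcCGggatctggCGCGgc
GTSF1: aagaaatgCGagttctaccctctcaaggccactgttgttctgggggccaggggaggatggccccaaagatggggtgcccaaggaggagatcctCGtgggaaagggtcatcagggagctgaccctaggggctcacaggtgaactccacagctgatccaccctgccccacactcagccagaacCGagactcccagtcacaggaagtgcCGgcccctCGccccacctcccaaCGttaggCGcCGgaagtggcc
MAGEB2: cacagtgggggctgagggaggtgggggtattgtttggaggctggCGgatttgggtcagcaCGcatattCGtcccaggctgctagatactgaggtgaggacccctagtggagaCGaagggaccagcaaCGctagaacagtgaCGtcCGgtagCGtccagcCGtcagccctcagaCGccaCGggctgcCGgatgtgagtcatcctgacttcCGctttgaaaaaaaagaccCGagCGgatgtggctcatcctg
S100A9: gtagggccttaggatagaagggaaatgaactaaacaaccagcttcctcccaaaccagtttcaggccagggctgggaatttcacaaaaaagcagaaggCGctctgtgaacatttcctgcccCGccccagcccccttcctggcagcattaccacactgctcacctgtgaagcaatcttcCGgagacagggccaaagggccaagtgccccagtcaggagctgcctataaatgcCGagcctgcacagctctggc
These windows hold 10, 8, 15 and 4 CG in the order given. A share of 99.4% of the 9563 genes with such a window had at least 1 CG, and 14.1%, 10.7%, 28.9% and 5.5% of them had as few as these 4 genes or fewer. A count of CG is a description of the sequence and says nothing of its methylation in MOLM13.

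ZNF595 read 2.39 and 2.23 in DMSO replicates 1 and 2 and 11.23 and 11.82 in the treated replicates 1 and 2, an order kept below. The signal thus went from near the floor to the upper part of the range in both treated arrays, a change of 9.22 ± 0.28 (SE of the fit, adjusted p = 4.8e-13), or 594-fold on the scale of the signals. GTSF1 read 2.13 and 2.47 with DMSO and 10.73 and 10.75 with the inhibitor (8.44 ± 0.11, adjusted p = 3.31e-18). MAGEB2 went from 2.97 and 2.96 to 10.39 and 10.32 (7.39 ± 0.21, adjusted p = 1.43e-13). In each of the 3 genes the groups lay far apart, and since DMSO signals sat near the floor the fold is limited by it. Few germline genes were measured: 5 of 54 listed cancer-testis antigens and 11 of 43 listed germline and piRNA genes. Of the 5 antigens 4 rose, with a list median of 1.41. Of the 11 germline and piRNA genes 3 rose and 1 fell, with a median of 0.00. Whether the unmeasured members changed is not known, so these counts do not describe the whole lists. TKTL1, a transketolase-like gene of the cancer-testis list, read 2.13 in both DMSO arrays and 6.16 and 7.66 in the treated arrays (4.78 ± 0.32). PRAME rose by 1.41 ± 0.13. MAGEA4 rose from the floor to 3.50 and 2.54, a call lost without DMSO replicate 1, DMSO replicate 2 or treated replicate 1 (adjusted p up to 0.501). Of the piRNA genes, TDRD9, a helicase of the pathway, rose by 2.92 ± 0.49 from 2.35 in both DMSO arrays to 6.22 and 4.30, and PIWIL4, already at 10.19 and 10.24, reached 11.98 and 12.20. TEX15, which takes part in meiosis and in silencing in the male germline, fell by 1.04 on the log2 scale (SE 0.24), from 10.92 and 10.65 to 9.74 and 9.75.

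A second group of very large rises encoded secreted and calcium-binding proteins of myeloid cells and of the acute phase. S100A8 and S100A9 together form calprotectin, the abundant cytosolic protein of neutrophils and monocytes. S100A9 read 4.01 and 3.81 with DMSO and 11.11 and 11.31 with GSK3484862 (7.30 ± 0.49, adjusted p = 1.15e-08). S100A8 went from 7.14 and 7.04 to 12.89 and 12.80 (5.75 ± 0.39). S100P, another calcium-binding S100 protein, went from 2.88 and 3.60 to 10.51 and 10.53 (7.28 ± 0.28). For these 3 genes the treated arrays lay within 0.20 of each other and at least 5 units above the DMSO arrays. C3, the central complement component, read 3.72 and 5.09 with DMSO and 11.03 and 11.02 with the inhibitor (6.61 ± 0.35), the DMSO duplicates lying further apart than the treated ones. ORM1, which encodes the acute-phase protein orosomucoid, went from 5.76 and 4.54 to 11.28 and 11.70 (6.34 ± 0.27). SERPINF1 and SERPINA1 of the serpin family rose as well. SERPINF1 went from 4.26 and 4.50 to 10.09 and 10.12 (5.72 ± 0.36), and SERPINA1, alpha-1-antitrypsin, from 4.42 and 3.43 to 9.17 and 9.49 (5.41 ± 0.23). SLPI, an inhibitor of neutrophil elastase, went from 4.86 and 5.30 to 10.18 and 10.77 (5.39 ± 0.40). Of the 23 measured serpin and S100 genes 14 rose, and none fell in the limma test (1 at an unadjusted p under 0.05), with a median change of 0.81 against -0.01 over all genes. Without treated replicate 2, 1 of the 23 was called lower. S100A12, a further calgranulin, and S100B changed by 0.00 and stayed under 3. SERPINA1, S100A12 and S100B were named after their values were seen.

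**Figure D2:**
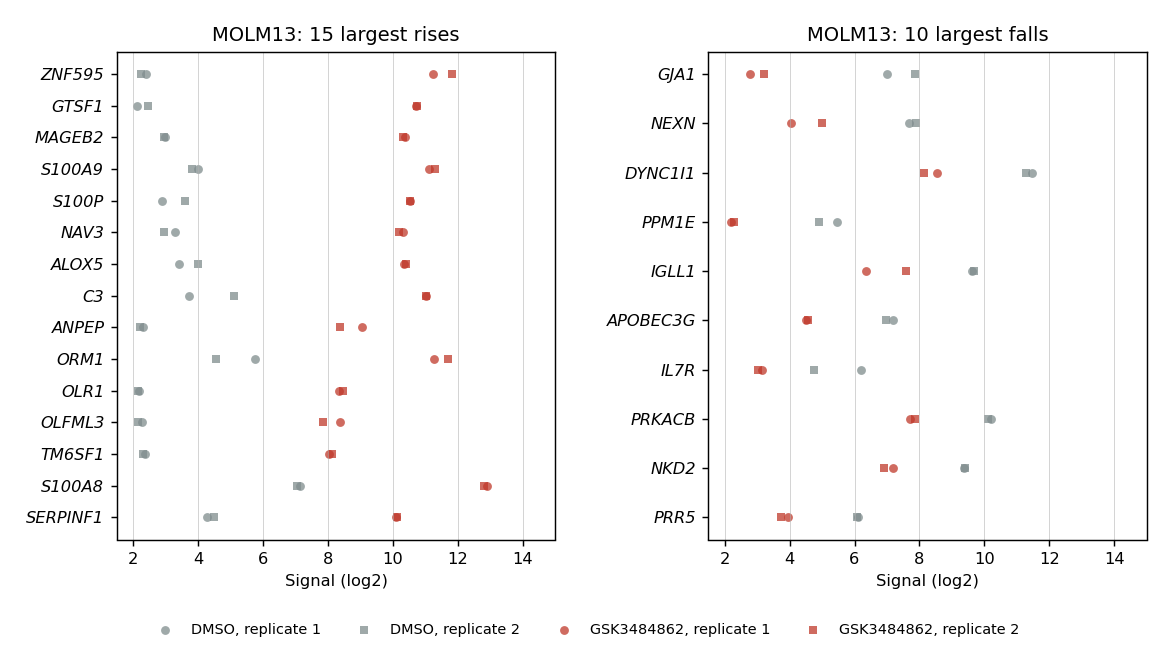
Log2 signal (x axis) of the 15 largest rises (left) and 10 largest falls (right) in the 4 MOLM13 arrays, DMSO in grey and GSK3484862 in red, with circles for replicate 1 and squares for replicate 2. For all 25 genes the 2 treated arrays lie on 1 side of the 2 DMSO arrays, as the rule that chose them required.

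Many genes of the neutrophil lineage rose, from levels that differed widely. The mean of the list was 7.22 and 7.12 in the 2 DMSO arrays, under the median gene at 9.53, while some azurophil granule genes were already strong. Of 23 neutrophil granule and chemotaxis genes 14 rose, 10 of them by 2-fold or more, and none fell (0 also at an unadjusted p under 0.05 in limma); the median change was 0.77. MPO, the myeloperoxidase of azurophil granules, read 11.85 and 11.61 with DMSO and 14.39 and 14.55 with the inhibitor (2.74 ± 0.26, adjusted p = 9.21e-07). The elastase gene ELANE, at 14.99 and 15.07, rose by 0.50 ± 0.11, and the azurocidin gene AZU1, at 14.19 and 14.41, by 0.49 ± 0.10. By contrast PRTN3 (0.23 ± 0.15) and CTSG (0.16 ± 0.29), also azurophil granule proteases, did not pass the test. CEBPE, the transcription factor needed for late granulocyte maturation, went from 6.29 and 5.73 to 9.58 and 9.78 (3.67 ± 0.22). HP, haptoglobin of the specific granules, went from 6.94 and 6.79 to 10.13 and 10.24 (3.32 ± 0.27), and CEACAM6, a surface glycoprotein of granulocytes, from 3.84 and 3.15 to 5.80 and 7.93 (3.37 ± 0.44). ANXA1, annexin A1, rose by 2.48 ± 0.23. The chemotactic receptors FPR1, FPR2 and C5AR1 stayed at low signals, unlike the chemokine receptor CX3CR1 described below. The formyl peptide receptor FPR1 read 2.25 and 2.13 with DMSO and 2.80 in both treated arrays, its relative FPR2 was called higher, from 2.87 in both to 3.64 in both (0.77 ± 0.25), and the C5a receptor C5AR1 lay between 2.13 and 2.17 in all 4. MPO, ELANE, AZU1, PRTN3, CTSG, HP, ANXA1, FPR1, FPR2 and C5AR1 were named after their values were seen.

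Monocyte genes rose unevenly. Of 36 monocyte and macrophage markers 17 rose, 12 by 2-fold or more, and none fell (0 at an unadjusted p under 0.05 in limma), with a median change of 0.61. TREM1, an activating receptor that amplifies inflammatory signals, went from 4.15 and 5.26 to 8.00 and 8.45 (3.52 ± 0.34). ITGAM, the alpha chain of complement receptor 3 (CD11b), went from 5.38 and 6.47 to 8.71 and 8.57 (2.72 ± 0.47). CX3CR1, the fractalkine receptor, rose from 8.45 and 8.64 to 10.96 and 11.16 (2.52 ± 0.28), and MNDA, a nuclear antigen of myeloid cells, from 11.66 and 11.43 to 13.41 and 13.44 (1.88 ± 0.27). The endotoxin co-receptor CD14 read 2.13 in both DMSO arrays and 2.37 and 2.66 in the treated arrays (0.39 ± 0.42, adjusted p = 0.565), and the lectin gene FCN1, ficolin-1, lay between 2.14 and 2.23 throughout. CX3CR1, MNDA, CD14 and FCN1 were named after their values were seen.

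The cell surface of AML blasts was covered by a list of 47 measured CD-numbered antigens, of which 19 rose and none fell (0 at an unadjusted p under 0.05 in limma), with a median change of 0.57. ANPEP, aminopeptidase N or CD13, went from 2.31 and 2.21 to 9.05 and 8.36 (6.45 ± 0.26, adjusted p = 2.23e-11). CD52, a small glycosylphosphatidylinositol-anchored antigen, went from 7.55 and 7.83 to 11.76 and 12.07 (4.23 ± 0.11). CD9, a tetraspanin, went from 3.40 and 5.14 to 7.60 and 7.65 (3.36 ± 0.35), with the DMSO duplicates 1.74 apart. CD38, an ectoenzyme used as a marker of committed progenitors, rose by 2.26 ± 0.47, from 6.24 and 7.22 to 8.77 and 9.21. OLR1, the scavenger receptor LOX-1 and no member of a list, went from 2.19 and 2.14 to 8.33 and 8.46 (6.23 ± 0.37). Of 31 adhesion genes 9 rose (29%, against 13.7% of all genes) and 3 fell (9.7%, against 15.4%). PECAM1 rose by 2.06 ± 0.20 and FERMT3, kindlin-3, by 1.85 ± 0.12, while ICAM2 fell from 11.25 and 11.22 to 9.57 and 9.32 (-1.79 ± 0.19). The number of adhesion genes called lower was 1 without DMSO replicate 1 and 1 without treated replicate 1.

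Several eosinophil genes rose from near the floor. Of 15 eosinophil, basophil and mast cell genes 5 rose, all by 2-fold or more, and none fell (0 at an unadjusted p under 0.05 in limma), with a median of 0.45. CLC, which forms Charcot-Leyden crystals, went from 3.00 and 3.04 to 8.77 and 8.17 (5.45 ± 0.32). ADORA3, an adenosine receptor of eosinophils and mast cells, went from 2.14 in both DMSO arrays to 7.61 and 7.39 (5.36 ± 0.35). PRG3, an eosinophil granule protein, went from 2.13 in both to 5.94 and 5.25 (3.46 ± 0.49), and EPX, eosinophil peroxidase, from 3.03 and 3.28 to 6.73 and 6.02 (3.22 ± 0.53). PRG2, the major basic protein of the same granules, was already at 14.14 and 14.23 and read 15.15 and 15.10 with the inhibitor (0.93 ± 0.43, adjusted p = 0.119). HDC, the histamine-forming enzyme of basophils and mast cells, stayed between 3.40 and 3.49. PRG2 and HDC were named after their values were seen.

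Enzymes of leukotriene synthesis rose at several steps of the pathway. ALOX5, the 5-lipoxygenase that starts it, read 3.40 and 4.00 with DMSO and 10.33 and 10.40 with GSK3484862 (6.67 ± 0.16, adjusted p = 1.46e-14), and all 3 of its probe sets rose. Its activating partner ALOX5AP was strong before treatment and rose from 13.14 and 13.41 to 13.94 and 13.98 (0.69 ± 0.14). LTC4S, which makes leukotriene C4, went from 3.09 and 3.55 to 6.76 and 6.63 (3.38 ± 0.45), and DPEP2, a dipeptidase that trims it further, from 2.13 in both to 3.75 and 3.89 (1.69 ± 0.30). LTA4H, the hydrolase of the leukotriene B4 branch, changed by 0.10 ± 0.12 and did not pass the test. In the whole list of leukotriene and prostaglandin genes 7 of 19 rose and 1 fell, with a median of 0.19, and the fall was lost without any 1 of the 4 arrays. ALOX5AP and LTA4H were named after their values were seen. Of 13 phagocyte oxidase genes 7 rose and 0 fell (0 lower at an unadjusted p under 0.05 in limma), with a median of 0.22. CYBB, the catalytic subunit of the oxidase, went from 6.17 and 5.56 to 10.29 and 10.26 (4.41 ± 0.42), although 1 of its 3 probe sets did not change in that direction. The other oxidase subunits changed by less than 2-fold, and the count of 7 was 3 without DMSO replicate 1, 3 without treated replicate 1, 3 without treated replicate 2 and 4 without DMSO replicate 2.

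Lysosome genes rose widely and by moderate amounts. Of 46 lysosome genes 30 rose and 1 fell, with a median change of 0.57, and 8 of the rises reached 2-fold. GRN, the progranulin precursor, went from 11.15 and 11.29 to 13.02 and 13.08 (1.83 ± 0.11, adjusted p = 1.96e-09). IDS, iduronate sulfatase, rose by 1.40 ± 0.12 from 8.92 and 8.87, and all 6 of its probe sets rose. PSAP, the precursor of the saposins, rose by 1.29 ± 0.10, and CTSD, the aspartic protease cathepsin D, by 1.16 ± 0.15. Smaller rises included ASAH1, acid ceramidase (0.88 ± 0.08), HEXA, beta-hexosaminidase alpha (0.72 ± 0.11), and the membrane protein LAMP1 (0.24 ± 0.05). CTSL, cathepsin L, went the other way, from 10.27 and 10.03 to 9.56 and 9.65 (-0.54 ± 0.12), and without treated replicate 1 2 genes of the list were called lower. CTSD, ASAH1, HEXA and LAMP1 were named after their values were seen.

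Of 16 MHC class II presentation genes 5 rose, 4 of them by 2-fold or more, and 1 fell (median 0.56). HLA-DRA, the alpha chain of HLA-DR, went from 5.33 and 5.82 to 7.85 and 8.19 (2.44 ± 0.54), and HLA-DMA, a peptide exchange factor, from 3.79 and 3.45 to 5.65 and 5.90 (2.15 ± 0.54), while CIITA, the class II transactivator, changed by 0.29 ± 0.26 and did not pass the test. Without DMSO replicate 1 the count of class II rises was 3. Of 21 class I presentation genes 10 rose and 1 fell (median 0.25), among them NLRC5, the class I transactivator (1.32 ± 0.19), and HLA-E (0.90 ± 0.09). HLA-E shares long stretches with the other class I genes, so its probe set may pick up transcripts of several. The class I fall was lost without DMSO replicate 1 or treated replicate 2, and the class I rises numbered 3 without DMSO replicate 1, 5 without treated replicate 1 and 6 without treated replicate 2.

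The list of responders to type I interferon held 52 measured genes, with a median change of 0.07. Of these 13 were called higher (25%, against 13.7% of all genes) and 3 lower (5.8%, against 15.4%). The rises reached 2-fold for 7 of them. IFI6 went from 4.79 and 5.43 to 7.17 and 6.99 (1.97 ± 0.31), SAMHD1, a dNTP hydrolase that restricts viruses, from 11.21 and 11.19 to 12.62 and 12.78, and HERC5, a ligase for ISG15, from 3.10 and 2.96 to 4.04 and 4.66 (1.32 ± 0.14). MX2, a restriction factor of the nucleus, rose from 5.62 and 6.22 to 7.59 and 7.55, a call lost without DMSO replicate 1 (adjusted p = 0.0794). ISG15 itself rose by 0.60 ± 0.15, a call lost without treated replicate 2 (adjusted p = 0.0535). For 14 of the 52 genes both group means stayed under 4. This limit leaves out genes that rose past it from a DMSO mean under 4, such as HERC5, so it largely fixed the count of calls in advance. None of these 14 was called (0 at an unadjusted p under 0.05 in limma). They included IFI44L and OAS2, which lay at the floor of 2.13 in all 4 arrays, and MX1, which lay between 2.13 and 2.27. USP18, which removes ISG15 and damps interferon signalling, fell from 6.46 and 6.74 to 4.54 and 5.72 (-1.47 ± 0.39). That fall was no longer called without DMSO replicate 2 or without treated replicate 1 (adjusted p up to 0.164), and without either of these arrays 1 of the 52 genes was called lower. Of 14 nucleic acid sensors 4 rose (2 without treated replicate 2), and none fell (0 at an unadjusted p under 0.05 in limma). TLR8, an endosomal receptor for single-stranded RNA, went from 2.16 in both DMSO arrays to 6.16 and 5.82 (3.83 ± 0.29). HERC5, ISG15, IFI44L, OAS2, MX1 and CIITA were named after their values were seen.

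Among 38 myeloid transcription factors 10 rose (26.3%, against 13.7% of all genes) and 5 fell (13.2%, against 15.4%), with a median of 0.06. Besides CEBPE, ZEB1, a repressor of epithelial genes, rose by 1.82 ± 0.21, with 1 of its 3 probe sets not changing in that direction, and CEBPB and CEBPD, both C/EBP factors of myeloid differentiation, rose by 0.49 ± 0.08 and 0.48 ± 0.13, the latter call being lost without DMSO replicate 1 or treated replicate 2 (adjusted p up to 0.105). BATF3, a factor of dendritic cells, fell by 1.37 on the log2 scale (SE 0.27). SPI1, CEBPA and GFI1 did not pass the test, with changes of 0.27 ± 0.12, 0.05 ± 0.08 and 0.05 ± 0.18. The counts were unstable: 5 rises were called without DMSO replicate 1 and 6 without DMSO replicate 2 or treated replicate 1, and 3 falls without either DMSO replicate and 1 without treated replicate 1. Of 30 growth factor receptors 11 rose (36.7%) and 2 fell (6.7%), with a median of 0.24. AXL, a receptor tyrosine kinase, went from 5.08 and 3.74 to 9.26 and 9.01 (4.73 ± 0.62). CSF1R, the receptor of macrophage colony-stimulating factor, went from 6.44 and 6.55 to 8.50 and 8.71 (2.10 ± 0.28), and CSF2RA, the alpha chain of the GM-CSF receptor, from 9.65 and 9.72 to 10.71 and 10.78 (1.06 ± 0.17). The beta chain shared by the receptors of GM-CSF, IL-3 and IL-5, CSF2RB, went the other way, from 8.82 and 8.46 to 8.04 and 7.85 (-0.69 ± 0.16), a call lost without DMSO replicate 1 (adjusted p = 0.0781). FLT3, mutated in this line, read 12.35 and 12.24 with DMSO and 11.37 and 11.57 with the inhibitor (-0.83 ± 0.25, adjusted p = 0.0179), a call lost without DMSO replicate 1, DMSO replicate 2 or treated replicate 1 (adjusted p up to 0.121). With it, the number of receptors called lower was 0 without DMSO replicate 1 and 1 without DMSO replicate 2 or treated replicate 1. Among 29 target genes of STAT5 and FLT3 signalling 4 rose and 8 fell, with a median of -0.05, and the 8 falls became 2 without DMSO replicate 1, 4 without DMSO replicate 2 and 3 without treated replicate 1. SPI1, CEBPA, CEBPB, CEBPD, GFI1, CSF2RA and CSF2RB were named after their values were seen.

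The largest falls came from genes of different kinds. GJA1, the gap junction protein connexin 43, read 7.01 and 7.85 with DMSO and 2.79 and 3.22 with GSK3484862 (-4.43 ± 0.26, adjusted p = 2.27e-09), a drop to near the floor in both treated arrays. NEXN, an actin-binding protein, went from 7.67 and 7.89 to 4.03 and 5.01 (-3.25 ± 0.32). DYNC1I1, an intermediate chain of cytoplasmic dynein, went from 11.48 and 11.28 to 8.53 and 8.15 (-3.04 ± 0.15). PPM1E, a protein phosphatase, went from 5.45 and 4.91 to 2.20 and 2.29 (-2.93 ± 0.22), which left it near the floor. In each of these 4 genes every treated array lay at least 2.6 units below every DMSO array. IGLL1, the surrogate light chain of pre-B cells, went from 9.61 and 9.67 to 6.34 and 7.57 (-2.69 ± 0.28), and IL7R, the receptor of interleukin 7, from 6.21 and 4.76 to 3.16 and 3.02 (-2.40 ± 0.28). They were the 2 genes called among 12 lymphocyte markers, and none of the 12 rose (0 at an unadjusted p under 0.05 in limma); without DMSO replicate 1 a rise was called for 1. APOBEC3G, a cytidine deaminase that restricts retroviruses, went from 7.17 and 6.98 to 4.50 and 4.56 (-2.55 ± 0.24). PRKACB, a catalytic subunit of protein kinase A, fell by 2.38 on the log2 scale (SE 0.17), NKD2, an inhibitor of WNT signalling, by 2.35 (SE 0.20), and PRR5, a subunit of mTOR complex 2, by 2.25 (SE 0.27).

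Smaller falls spread over genes of growth. Of 41 MYC and ribosome biogenesis genes 36 fell and none rose (0 at an unadjusted p under 0.05 in limma), against 15.4% of all genes lower, and the list median was -0.50. Falls were more frequent among strong signals, with 688 of the 2919 strongest genes called lower (DMSO mean from 11.3). The list means with DMSO lay in that range, at 12.32 and 12.23, as did those of the S-phase list below, at 11.86 and 11.83. In the mean of the other lines the 2 list medians were -0.31 and -0.28. PES1, needed for maturation of the large ribosomal subunit, went from 11.93 and 11.94 to 11.20 and 11.17 (-0.75 ± 0.06, adjusted p = 2.09e-07). TSR1, of the small subunit, went from 13.18 and 13.05 to 12.29 and 12.38 (-0.78 ± 0.07), and MYBBP1A, a nucleolar protein, from 10.66 and 10.40 to 9.35 and 9.92 (-0.89 ± 0.17). POLR1E, a subunit of RNA polymerase I, fell by 0.72 on the log2 scale (SE 0.09), and MYC by 0.60 (SE 0.10), from 13.90 and 13.72 to 13.20 and 13.22. The 39 genes of cytosolic ribosomal proteins did not move with them: none was called in limma and 0 had an unadjusted p under 0.05, with changes between -0.20 and 0.12. Of 53 DNA replication and S-phase genes 29 fell and none rose (0 at an unadjusted p under 0.05 in limma), with a median of -0.30, and the largest fall was 0.85 on the log2 scale, for the exonuclease EXO1 (SE 0.12). CLSPN, claspin of the replication checkpoint, fell by 0.76 (SE 0.11), GINS2 of the replicative helicase by 0.59 (SE 0.07) and the licensing factor CDC6 by 0.57 (SE 0.10), whereas PCNA (-0.18 ± 0.09) and TYMS (-0.04 ± 0.06) did not pass the test. Without treated replicate 1, 18 of the 53 were called. Of 50 genes of G2 and mitosis 1 rose and 2 fell, with a median of -0.08, and without treated replicate 1 or DMSO replicate 1 none was called lower, while the rise was lost without any 1 array. MYC, POLR1E, CDC6, PCNA and TYMS were named after their values were seen.

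**Figure D3:**
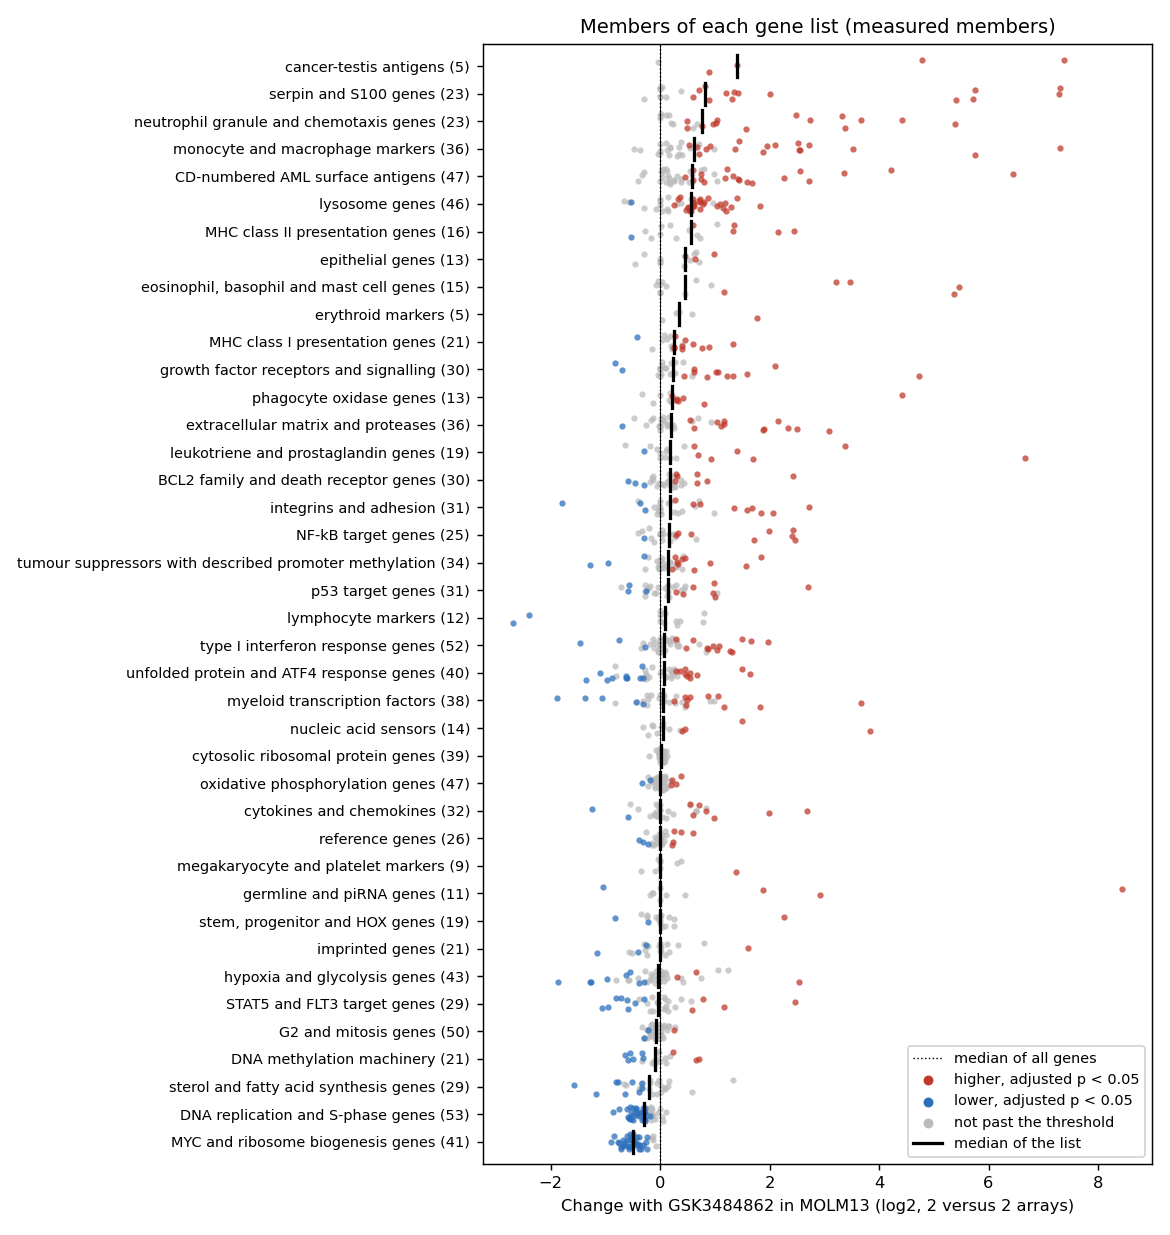
Log2 change in MOLM13 (x axis) of each measured member of 40 gene lists (y axis, number of members in brackets), with red for genes called higher, blue for genes called lower and grey for the rest. Black bars are list medians, from 1.41 for the cancer-testis antigens to -0.50 for the MYC and ribosome biogenesis genes, and the dotted line is the median of all genes at -0.01.

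The DNA methyltransferases changed by 0.50 or less on the log2 scale. DNMT1, the target of the inhibitor, read 13.38 and 13.47 with DMSO and 13.39 and 13.34 with GSK3484862 (-0.06 ± 0.07, adjusted p = 0.624), so the groups overlapped. UHRF1, which brings DNMT1 to newly replicated DNA, changed by 0.12 ± 0.08 (adjusted p = 0.313) and the de novo enzyme DNMT3B by 0.19 ± 0.10 (adjusted p = 0.186). DNMT3A, the other de novo enzyme, fell from 9.63 and 9.38 to 9.01 in both treated arrays (-0.50 ± 0.11, adjusted p = 0.00286), a call lost without DMSO replicate 1 (adjusted p = 0.0568). TET2, which oxidises methylated cytosine, read 9.60 and 9.61 with DMSO and 10.29 and 10.24 with GSK3484862 (0.66 ± 0.11), although only 1 of its 3 probe sets changed in that direction. Of the 21 measured genes of the methylation list 3 rose (14.3%, against 13.7% of all genes) and 6 fell (28.6%, against 15.4%), with a median of -0.09, and without DMSO replicate 1 the falls numbered 3. ZBTB33, which encodes Kaiso, a protein that binds methylated CG, fell by 0.65 on the log2 scale (SE 0.09) and ZBTB4, a relative that binds methylated CG too, rose by 0.71 ± 0.15.

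Other lists were mixed, and their counts are to be read against the 13.7% of all genes called higher and the 15.4% called lower. Of 31 p53 target genes 7 rose and 3 fell (median 0.14), led by TP53I3 (2.70 ± 0.30), with GADD45A, a stress and repair factor, higher by 1.00 ± 0.11; without DMSO replicate 2 or treated replicate 1 the rises numbered 4. Of 30 genes of the BCL2 family and death receptors 7 rose and 3 fell (median 0.19; 4 rises without treated replicate 1 and 3 without treated replicate 2), and BCL2A1, an anti-apoptotic member, went from 5.41 and 4.78 to 7.35 and 7.70 (2.43 ± 0.31). Of 25 NF-kB target genes 8 rose and 1 fell (median 0.16), and the fall was lost without any 1 array other than DMSO replicate 1. Among them PTX3, a soluble pattern recognition protein, rose by 2.41 ± 0.45 and the chemokine gene CXCL8 by 1.99 ± 0.32. Of 32 cytokines and chemokines 7 rose and 2 fell (median 0.00; 1 fall without DMSO replicate 1 or treated replicate 2), with IL32, an inflammatory cytokine gene, rising from 2.13 and 2.26 to 4.50 and 5.26. Of 36 genes of the extracellular matrix and its proteases 12 rose and 1 fell (median 0.19), led by TGFBI (3.08 ± 0.56) and ADAM8 (2.50 ± 0.38). Of 34 tumour suppressors for which promoter methylation has been described 10 rose and 3 fell (median 0.14). DAPK1, a death-associated kinase, rose by 1.84 ± 0.17, but the rises numbered 3 without DMSO replicate 1, 3 without treated replicate 1 and 6 without treated replicate 2, and the falls 1 without any of DMSO replicate 1, DMSO replicate 2 and treated replicate 1. Of 21 imprinted genes 1 rose (4.8%) and 3 fell (14.3%), and the rise was PLAGL1, a zinc finger gene, which went from 4.88 and 4.84 to 6.31 and 6.63; the falls numbered 0 without DMSO replicate 2 and 1 without any other single array. Of 40 genes of the unfolded protein and ATF4 response 10 rose and 10 fell (6 falls without treated replicate 1), and of 29 genes of sterol and fatty acid synthesis 9 fell and none rose (1 at an unadjusted p under 0.05 in limma). The sterol falls included SCD, the stearoyl-CoA desaturase (-1.17 ± 0.16), and FASN, fatty acid synthase (-0.78 ± 0.13), and numbered 4 without DMSO replicate 2 and 3 without treated replicate 1, while without DMSO replicate 2 a rise was called for 2; with array weights, and with line-by-replicate pairs, the falls numbered 14.

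The change in MOLM13 was then set against the mean change of the other 6 lines, in the same limma fit and with the difference itself as the contrast. It differed for 1325 of 11676 genes (11.3%), being higher in MOLM13 for 845 (7.24%) and lower for 480 (4.11%), around a median difference of -0.01. Without DMSO replicate 1 of MOLM13 829 genes differed and without treated replicate 2 872, and the lower ones numbered 247 without treated replicate 1, 253 without DMSO replicate 1 and 308 without treated replicate 2. For GTSF1 the rise of 8.44 in MOLM13 stood against a mean of 1.26 elsewhere (difference 7.18 ± 0.12, adjusted p = 1.61e-16), and the other lines ran from -0.33 to 7.78, the highest being SKM1. ALOX5 rose by at most 1.22 in another line (difference 6.02 ± 0.17), ORM1 by at most 0.83 (6.07 ± 0.29), and C3 by at most 1.44 (5.96 ± 0.37), and none of the other lines had a called rise of ORM1. S100A8, in contrast, rose by 8.24 in GDM1, more than in MOLM13. Among falls, GJA1 fell by 4.43 in MOLM13 and changed by 0.07 on average elsewhere (difference -4.50 ± 0.28).

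**Figure D4:**
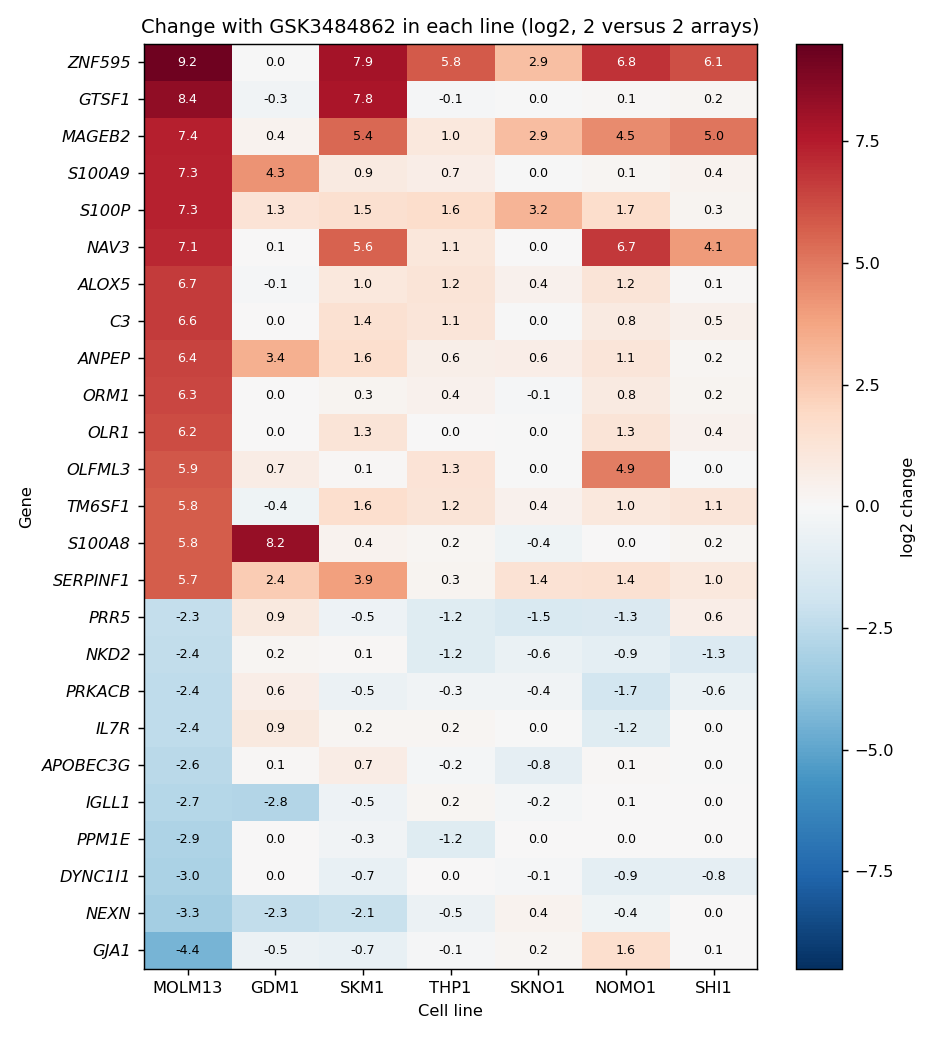
Log2 change with GSK3484862 in MOLM13 (first column) and in each of the other 6 lines, for the 15 largest rises and 10 largest falls in MOLM13; every cell prints its value, and the colour runs from blue (lower) to red (higher). ZNF595, NAV3 and MAGEB2 rose by over 4 in several other lines, whereas ALOX5, C3 and ORM1 stayed under 1.5 in each of them.

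By gene list, the differences from the other lines went both ways. The counts are to be read against the 7.24% of all genes higher in MOLM13 and the 4.11% lower. The MOLM13 change was higher for 23 of 46 lysosome genes and lower for 1, the list median being 0.57 in MOLM13 and 0.18 in the mean of the other lines. It was higher for 11 of 23 neutrophil genes and lower for 1, higher for 11 of 23 serpin and S100 genes, and higher for 12 of 36 monocyte markers and lower for 2. Interferon genes went the other way, with 15 of 52 lower in MOLM13 than in the mean of the other lines and 4 higher, and medians of 0.07 and 0.57. That mean held lines of different kinds. The list median was 1.64 in GDM1, 0.67 in THP1 and 0.45 in SKM1, with 43, 29 and 23 of the 52 genes called higher, but 0.04 in SKNO1, 0.01 in NOMO1 and -0.01 in SHI1, with 4, 4 and 1 called higher against 13 in MOLM13. MOLM13 was not tested against single lines. ISG15 rose by 0.60 in MOLM13 and by 1.29 on average elsewhere (difference -0.69), though by 0.41 in NOMO1 and 0.19 in SHI1, and LGALS3BP, a secreted interferon-induced glycoprotein, stayed between 2.13 and 2.15 in all 4 MOLM13 arrays while the mean change elsewhere was 2.55, with 0.28 in NOMO1 and 0.15 in SHI1 (difference -2.54 ± 0.48, adjusted p = 0.00191). Of the 15 genes, 4 had both MOLM13 means under 4. LGALS3BP was named after its values were seen. For MYC and ribosome biogenesis genes the difference was called lower for 7 of 41. For S-phase genes it was called lower for 2 of 53, near the share of all genes.

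**Figure D5:**
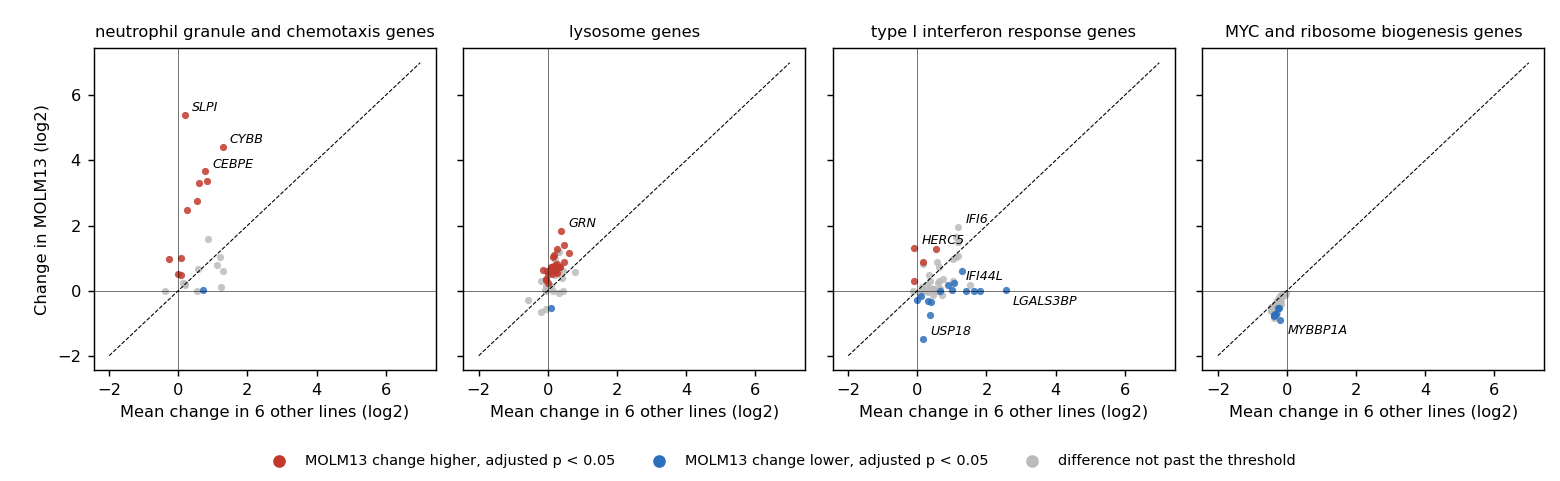
Log2 change in MOLM13 (y axis) against the mean log2 change of the other 6 lines (x axis) for members of 4 gene lists, with red and blue for members whose change was higher or lower in MOLM13 (limma, adjusted p under 0.05) and a dashed line where both are equal. Red marks 11 of 23 neutrophil and 23 of 46 lysosome genes, and blue marks 15 of 52 interferon genes and 7 of 41 MYC and ribosome biogenesis genes.

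Of the 532 genes that rose by 2-fold or more in MOLM13, 165 (31.0%) were called higher in no other line, against 72.3% of all genes, and the comparison of each line rested on its own DMSO arrays. The share also called higher was 47.2% in SKM1 (15.3% of that line's 1643 rises), 30.6% in GDM1 (10.5% of 1552), 25.8% in THP1 (21.7% of 630), 18.6% in NOMO1 (20.2% of 491), 69 of the 532 genes in SKNO1 (19.9% of 346) and 12.0% in SHI1 (21.8% of 294). The rates of called rises over all genes were 14.1%, 13.3%, 5.40%, 4.21%, 2.96% and 2.52% in the same order. Of the 139 genes that fell by 2-fold or more, 49 (35.3%) were called lower in no other line, against 66.0% of all genes. The rates of called falls over all genes were 14%, 20.5%, 8.30%, 7.55%, 3.12% and 0.899% in that order. Only NFE4, an erythroid factor gene, and MMP9, gelatinase B of neutrophil granules, were called higher in all 7 lines. In MOLM13, NFE4 went from 9.22 in both DMSO arrays to 11.01 and 10.98, and MMP9 from 5.58 and 4.66 to 6.23 and 6.11. RNASEH1-DT, a long non-coding RNA, and MATK, a kinase that restrains SRC kinases, were among the 4 genes called lower in all 7.

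The level before treatment was compared with that of the other lines as a description, since the DMSO arrays also enter the change. The 532 genes that rose by 2-fold or more had a median DMSO signal of 5.81 in MOLM13, and the median over these genes of the other lines' median was 7.81; with GSK3484862 the MOLM13 median was 7.80. Of the 532, 124 (23.3%) were lower in untreated MOLM13 than in every other untreated line, against 10.6% of all genes. S100P is an example, at 2.88 and 3.60 in MOLM13 and between 6.0 and 14.1 in the others, and so is TM6SF1, a transmembrane protein gene of myeloid cells, which rose from 2.36 and 2.29 to 8.05 and 8.11 against 3.3 to 11.4 elsewhere. After treatment 75 of the 532 (14.1%) exceeded the untreated level of every other line, against 9.90% of all genes. Of the 139 falls of 2-fold or more, 23 (16.5%) had been higher in untreated MOLM13 than in every other line, against 11.7% of all genes. At any size, this held for 421 of the 1798 falls (23.4%). Of the 1596 rises of any size, 313 (19.6%) had been lower than in every other line.

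Promoter CG content was counted in the same window of 250 bases for every gene with a RefSeq start in the table. Of the genes called higher 81.1% could be matched, and 74.8% of these had a CG-rich window (observed over expected CG of at least 0.6 and GC of at least 50%), against 83.6% of all 9563 matched genes and 91.6% of the genes called lower. The median number of CG was 19 for genes called higher, 22 for genes called lower and 20.2 for all. For the rises of 2-fold or more, 77.3% matched, under the 80% needed, so the count for them is void; it is given only as measured, at 61.3% CG-rich with a median of 14.5.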

How the data were processed

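RNA from 28 cultures of AML cell lines was measured on 1-colour Affymetrix arrays. The authors deposited 1 table of log2 signals for 27306 probe sets. Its background correction and normalization were not given in the sources used here, and the submitters' processing notes name limma without a version. Genes without a probe set of 1 symbol in this table were not tested, so every share of all genes refers to the 11676 genes it held. The scale was taken as log2 from the values, which have a floor at 2.13 and are bounded as log2 array signals are. Of the probe sets, 22580 had 1 gene symbol in the platform annotation, 1098 several and 3628 none; each of 11676 genes was read from its strongest probe set by mean signal across the 28 arrays. Arrays were grouped by title.

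A linear model (lmFit with eBayes; limma 3.58.1, R 4.3.3) was fitted to 14 groups of 2 arrays (14 residual and 2.28 prior degrees of freedom), so all 7 lines share the estimate of spread, and Benjamini-Hochberg adjustment ran over all genes. Calls were made where the adjusted p lay under 0.05, and all adjusted p-values in the text are from this fit. Errors after ± are its standard errors. The 2 contrasts were treated minus DMSO in MOLM13, and that change minus the mean change of the other 6 lines, which shares the MOLM13 arrays with the first. The procedure was tested on simulated data. Array number and signal over the floor limit the precision. The p-values set each change against the spread between duplicates, pooled over all 7 lines.

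The members and gene lists were chosen with earlier results of these data known. Named genes were the 15 largest rises and 10 largest falls, the 8 rises and 5 falls that differed most from the other lines, the 2 largest in each direction called in all 7 lines, up to 4 called members of each list by size with the largest going the other way, and 4 methylation genes; others are marked as chosen after their values were seen. Same-numbered treated and DMSO arrays did not deviate together in MOLM13 (r = -0.0527), so numbers were not used as pairs. In the other lines r ran from -0.0974 to 0.391, with 0.372 in SKM1, 0.391 in SKNO1 and 0.309 in NOMO1, which share the fit. With line-by-replicate pairs 1448 genes differed from the other lines, against 1325. Alternatives covered normalization, a filter on low signals, the choice of probe set, eBayes options, array weights, the arrays in the fit, each array or line left out, and thresholds.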

Additional observations from a re-analysis of the deposited data

Results flagged for a closer look

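For 13 genes the change in MOLM13 differed from the mean change of the other 6 lines by a test of the difference itself (limma, adjusted over 11676 genes). They are the 8 rises and 5 falls with the largest difference among genes called in both contrasts. A difference from the mean does not make a change particular to MOLM13. Of the 15 largest rises in MOLM13, which include these 8, only 1 was called higher in no other line. The difference was 7.18 for GTSF1, a piRNA pathway gene, 6.24 for the calprotectin subunit S100A9, 6.07 for the acute-phase gene ORM1, 6.02 for the lipoxygenase ALOX5 and 5.96 for complement C3. It was 5.74 for the scavenger receptor OLR1, 5.68 for S100P and 5.20 for ANPEP, or CD13. Among falls it was -4.50 for the connexin GJA1, -2.69 for the phosphatase PPM1E, -2.61 for the dynein chain DYNC1I1, -2.54 for the deaminase APOBEC3G and -2.41 for the actin-binding NEXN. Their changes in MOLM13 stand in the report. No explanation of these differences was tested.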

How the results depend on the processing

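Of 158 named calls none changed direction in the alternatives that gave them a value (111 without probe sets ending in _x_at or _s_at, 144 and 149 in the others that left out genes). From the 4 MOLM13 arrays alone 50 of the 158 were lost, and between 26 and 34 without 1 MOLM13 array. Against 3394 genes called, the fit to the 4 MOLM13 arrays alone called 2056, of which 1696 were among the 3394, and the fits without 1 MOLM13 array called between 2120 and 2651, of which 2043 to 2480 were. At an adjusted p under 0.01 2092 were called and with a limit of 2-fold 671. The 1596 rises became 532 with the 2-fold limit. The 1798 falls became 932 from the 4 arrays, 1012 at 0.01, 139 with the 2-fold limit, and 918 to 1426 without 1 array. The fit to the 4 arrays called 76 falls of 2-fold or more, against 139. The 1325 differences from the other lines became 761 at 0.01, 455 with the 2-fold limit, and 829 to 1041 without 1 array. Of these the 845 higher became 546 and 341 at the same limits. The 480 lower became 723 with array weights, 215 and 114 at those limits, and 247 to 364 without 1 array. The CG-rich share of 61.3% for rises of 2-fold or more was 74.8% for all rises. The cause of these shifts was not tested, beyond the fewer arrays or stricter limits themselves. Without 1 array the lone duplicate is assumed to vary like the other groups. The fit with a replicate block called 3459 genes with line-by-replicate pairs and 3444 with 1 term for all lines. Near the floor of 2.13 a change is limited by the floor.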

Other observations

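Genes of the zinc finger family were looked at after the value of ZNF595 was seen. Leaving that gene out, of 375 measured genes named ZNF with a number 75 rose and 23 fell, and 31 rose by 2-fold or more (8.27%, against 4.56% of all genes), with a median change of 0.07. ZNF586 read 5.80 and 4.35 with DMSO and 7.78 and 7.84 with GSK3484862 (2.74 ± 0.28), and ZNF550 went from 5.08 and 4.46 to 7.15 and 7.19 (2.40 ± 0.19). ZNF585A rose by 2.01 ± 0.15 and ZNF274, a DNA-binding factor at other zinc finger genes, by 1.73 ± 0.12. For 43 of these genes (11.5%, against 7.24% of all genes) the change was higher in MOLM13 than in the mean of the other lines, and for 7 it was lower. In ZNF586 the other 6 lines changed by -0.24 to 0.31.

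Immunoreceptors and their adaptors, were also chosen after values were seen, so their counts only describe the set. Of 25 measured genes 16 rose (64%, against 13.7% of all genes) and none fell (0 at an unadjusted p under 0.05 in limma), and for 14 (56%, against 7.24%) the change was higher than in the mean of the other lines. FGR, a SRC family kinase of myeloid cells, read 4.80 and 5.23 with DMSO and 10.26 and 10.66 with the inhibitor (5.44 ± 0.47). DOK3, an adaptor that restrains such signals, went from 4.66 in both to 9.37 and 9.35, and NFAM1, a receptor with an activation motif, from 3.18 and 3.56 to 7.89 and 7.85. The adaptor FCER1G, the Fc receptor gamma chain, went from 4.04 and 5.25 to 8.43 and 8.29 (3.72 ± 0.31), and TYROBP, or DAP12, from 12.20 and 12.15 to 14.10 and 14.18 (1.96 ± 0.25). The downstream kinase SYK rose by 0.40, a call lost without DMSO replicate 1 or treated replicate 1 (adjusted p up to 0.0561 in limma).

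Large rises outside every gene list, named after their values were seen, included OLIG1, a transcription factor of the oligodendrocyte lineage, from 2.69 and 2.79 to 8.15 and 8.47. FBLN1, an extracellular matrix protein, went from 2.59 and 2.53 to 7.54 and 7.99, with a mean change of 0.05 elsewhere. STAB1, a scavenger receptor of macrophages, went from 2.13 in both to 7.27 and 7.46. Of the falls outside the lists, ENPP2, autotaxin, went from 12.37 and 13.01 to 10.49 and 10.91, and TERT, the telomerase catalytic subunit, from 6.47 and 6.98 to 4.69 and 4.56.

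Some genes rose in other lines and were not called in MOLM13. For 34 genes the MOLM13 change was lower by the limma contrast, was not itself called, and averaged at least 1 elsewhere. COL14A1, a collagen, changed by 0.57 ± 0.35 in MOLM13 and by 3.31 on average elsewhere, with 8.48 in SKNO1. CTHRC1, a secreted matrix protein, stayed between 2.13 and 2.15 in MOLM13 and rose in 5 of the other 6 lines. AKR1C3, an aldo-keto reductase, was called higher in all 6 other lines and changed by -0.32 ± 0.35 in MOLM13.

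Neighbouring genes on a chromosome were compared as a description. Of the 532 rises of 2-fold or more, 83 (15.6%) lay directly beside another such rise among the measured genes, against 8.8% of all genes, and 43 adjacent pairs had both members rising so. OLR1 and TMEM52B (4.58), OLIG1 and OLIG2 (1.31), and HCST (2.92) and TYROBP are such pairs.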
